A study of Mus musculus with 56 samples.

Results

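The livers of mice given imatinib at 150 mg/kg were compared with the livers of mice given L-NAME, gene by gene, to see what was particular to imatinib. The comparison took every mouse carrying either treatment label, 8 of each, which is 16 of the 56 mice of the series. L-NAME was taken as the reference because its library shares lay close to those of the other treated groups. The series as a whole compares BCR-ABL kinase inhibitors in a mouse model of atherosclerosis, and L-NAME serves here as a treated reference. RNA from the liver of 1 mouse made 1 sequencing library.

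All groups were female APOE*3Leiden.CETP mice, which carry human transgenes that give them a human-like lipoprotein metabolism, aged 9 to 14 weeks at the start. All ate a Western-type diet with 15% cacao butter and 0.15% cholesterol, so no group stands for a liver on standard chow. Imatinib was given 2 times a day by gavage in carboxymethyl cellulose, over 16 weeks. L-NAME was added to the drinking water at 0.12 to 0.2% and these mice received the vehicle by gavage, and the length of this treatment is not given in the sources used here. The 8 control mice received vehicle alone, and the other 4 groups of 8 received nilotinib at 10 or 30 mg/kg or ponatinib at 3 or 10 mg/kg.

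Imatinib blocks the ABL kinases and also KIT, the PDGF receptors, the DDR collagen receptors and CSF1R, the receptor that macrophages need for their survival. L-NAME is an arginine analogue that blocks the nitric oxide synthases and raises blood pressure. The hepatocyte clears foreign compounds with cytochrome P450 enzymes and conjugating enzymes, whose genes are switched on by the receptors AhR, CAR and PXR. It makes cholesterol through the mevalonate pathway under the transcription factor SREBP2, while Kupffer cells and monocyte-derived macrophages carry much of the liver's antigen presentation and inflammation.

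Of 45513 genes listed, 14314 had enough reads to be tested, and 436 of them (3.05%) differed between imatinib and L-NAME at an adjusted p below 0.05. Values in parentheses after a gene are its log2 fold change of imatinib over L-NAME, with the standard error (SE) where given. Adjusted p-values come from edgeR's quasi-likelihood test with Benjamini-Hochberg adjustment over all genes tested. With imatinib, 171 genes (1.19%) were higher and 265 (1.85%) were lower. The lower genes moved further: their median log2 fold change was -1.18, against 0.59 for the higher genes, and 173 of them passed a 2-fold difference, against 37 of the higher genes. At an unadjusted p below 0.01 there were 937 genes (6.55%). Every imatinib mouse lay above every L-NAME mouse in 29 genes (0.203%) and below every L-NAME mouse in 60 (0.419%), together 0.622% of the genes tested. The number of genes that differed depended on single mice. It was 270, 236 or 266 without L-NAME mouse 10, 32 or 45, and 245 or 255 without imatinib mouse 51 or 56.

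Reads on genes ran from 6988328 to 10864365 in 15 of the 16 libraries, and L-NAME mouse 10 held 97473341. That library placed 16.8% of its uniquely aligned reads outside annotated genes, more than any other library of the series, and imatinib mouse 21 placed 14.1% there. The mean share outside genes was 10.0% ± 1.82 (SD, n = 8) with imatinib and 11.0% ± 2.45 (SD, n = 8) with L-NAME, which is given without a test because such shares led to the choice of L-NAME. Without these 2 mice 259 genes differed. The labels give no batch. Albumin and 11 other hepatocyte markers summed to 111700 to 157600 CPM (counts scaled by library size) with imatinib and 100900 to 138500 CPM with L-NAME, and of 17 genes of pancreas, fat and muscle 10 had no read in any of the 16 mice. In whole liver, fewer cells of a type and less RNA per cell cannot be told apart.

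The clearest difference lay in targets of AhR, the receptor that senses planar aromatic compounds. Of 6 tested AhR targets 2 were higher with imatinib, and these encode the P450 enzymes best known as its targets. Cyp1a2, on the minus strand of chromosome 9 at 57676937 to 57683703 (GRCm38), is active in the basal liver. It measured 2696, 3386 and 3969 CPM in the lowest, median and highest imatinib mouse, and 362, 472 and 710 CPM with L-NAME. All imatinib mice lay far above all L-NAME mice, and control mice, at 429 to 694 CPM, lay with L-NAME. The log2 fold change over L-NAME was 2.77 (SE 0.18, adjusted p = 2.2e-18).

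Cyp1a1, on the plus strand of chromosome 9 at 57687928 to 57703824, is nearly silent in the untreated liver. It read 10.6, 30.1 and 48.1 CPM in the lowest, median and highest imatinib mouse and 0, 0.738 and 2.70 CPM with L-NAME. No L-NAME mouse reached the lowest imatinib mouse, and 3 of them had no read, which at these depths allows up to 0.444 CPM. The log2 fold change of Cyp1a1 was 5.03 (SE 0.74, adjusted p = 1.8e-05). The other 4 targets did not pass: the log2 fold changes of the quinone reductase Nqo1 (0.20, SE 0.31), the AhR repressor Tiparp (-0.16, SE 0.28), Cyp1b1 (-0.17, SE 0.73) and the glucuronosyltransferase Ugt1a6a (0.06, SE 0.30) lay within 1 SE of 0.

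The sequence before the start of Cyp1a1 and of its neighbour Cyp1a2 is shown because these genes separated the groups most clearly. Both windows hold the 250 bases before the RefSeq start (GRCm38.p6), 5′ to 3′ along the gene, and capitals mark GCGTG, the core of the site that AhR binds, searched on both strands. The window of Cyp1a1 is chr9:57697363-57697612 on the plus strand, with a match at -54 to -50, and that of Cyp1a2 is chr9:57683656-57683905 on the minus strand, with no match. GCGTG occurs in 28.2% of all 32851 windows of this length, so a match is a description only.
Cyp1a1: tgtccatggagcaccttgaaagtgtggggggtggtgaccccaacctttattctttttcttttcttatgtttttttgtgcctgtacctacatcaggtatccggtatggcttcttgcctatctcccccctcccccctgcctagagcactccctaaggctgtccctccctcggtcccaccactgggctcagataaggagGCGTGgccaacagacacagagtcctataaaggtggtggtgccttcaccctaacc
Cyp1a2: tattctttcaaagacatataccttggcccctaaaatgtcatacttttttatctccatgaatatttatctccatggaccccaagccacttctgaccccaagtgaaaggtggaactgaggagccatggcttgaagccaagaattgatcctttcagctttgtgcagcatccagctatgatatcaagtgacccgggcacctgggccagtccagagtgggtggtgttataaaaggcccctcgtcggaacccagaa

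Imatinib stood apart from each of the other 6 groups in 5 genes, 0.0349% of those tested, when a gene had to differ in the same direction in all 6 contrasts. All 5 were higher with imatinib: Cyp1a2 (adjusted p = 2.4e-16 for the largest of the 6 p-values), Cyp1a1 (0.00021), Ces2e (0.0004), Gm26917 (0.0092) and Cyp2c50 (0.015). Without imatinib mouse 39 the count was 3, and Gm26917 and Cyp2c50 were the genes that dropped out.

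**Figure D1:**
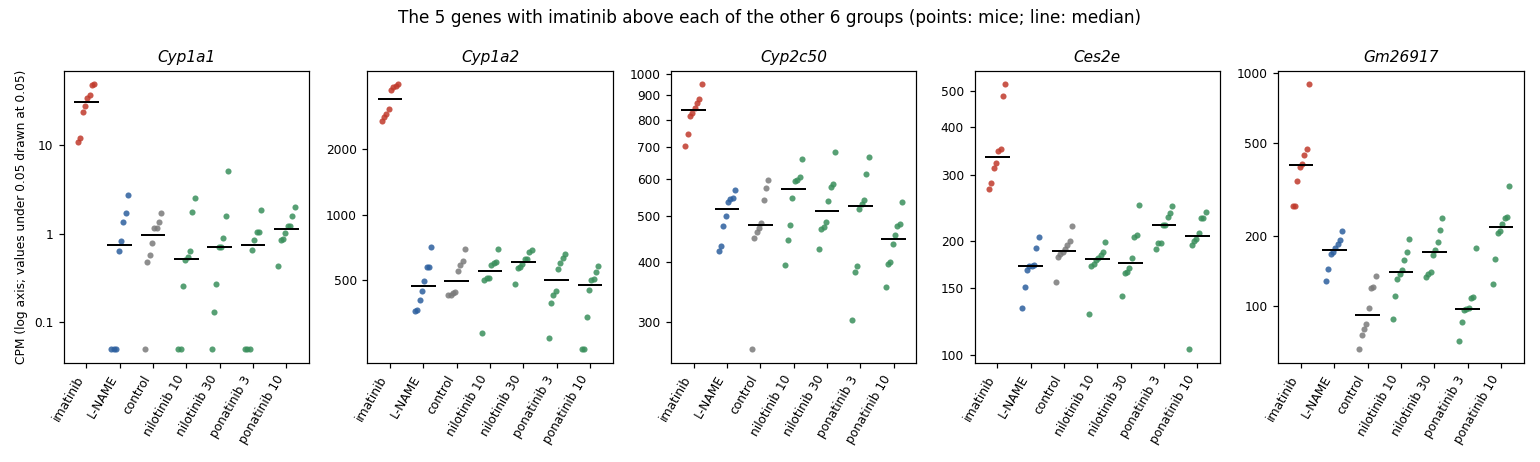
CPM on log axes for Cyp1a1, Cyp1a2, Cyp2c50, Ces2e and Gm26917 in the 7 groups of 8 mice; each point is a mouse, values under 0.05 are drawn at 0.05, and the line is the group median. The imatinib mice lie above all 48 other mice in Cyp1a1 (10.6 CPM or more), Cyp1a2 (2696 or more), Cyp2c50 (703 or more) and Ces2e (274 or more), while in Gm26917 1 ponatinib mouse, at 327 CPM, reaches their range.

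Ces2e encodes a carboxylesterase, an enzyme class that cleaves ester drugs and lipids. It measured 274, 334 and 521 CPM in the lowest, median and highest imatinib mouse and 133, 172 and 205 CPM with L-NAME, without overlap (log2 fold change 1.09, SE 0.12, adjusted p = 4.5e-09). Gm26917, a long non-coding RNA gene on chromosome 17 at 39843013 to 39846341, read 269, 402 and 896 CPM against 128, 174 and 211 CPM (1.35, SE 0.19, adjusted p = 1.8e-05). Its position lies in sequence of the ribosomal RNA precursor, and the ribosomal RNA left in each library was not measured. L-NAME mice also exceeded controls in Gm26917, by 0.82 on the log2 scale (adjusted p = 0.0027).

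Htatip2, which encodes a short-chain oxidoreductase, came next in the contrast with all groups. It read 105, 127 and 178 CPM in the lowest, median and highest imatinib mouse and 34.1, 55.1 and 82.0 CPM with L-NAME. The groups did not overlap (log2 fold change 1.18, SE 0.17, adjusted p = 1.8e-05), but Htatip2 missed the threshold over all 6 groups (adjusted p = 0.13).

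P450 genes under CAR and PXR, the receptors for phenobarbital-like drugs and for many steroids and medicines, were higher in 6 of 22 and lower in none, with a median log2 fold change of 0.65, beside -0.004 over all genes tested. The count was 3 without L-NAME mouse 10 or 45. Cyp2b10, the classic CAR target, read 8.54, 25.9 and 67.7 CPM in the lowest, median and highest imatinib mouse and 1.09, 2.82 and 12.2 CPM with L-NAME (3.03, SE 0.69, adjusted p = 0.0067). The groups overlapped through L-NAME mouse 50 alone, since the next L-NAME mouse read 3.64 CPM.

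Cyp2c29 and Cyp2c50, hydroxylases of fatty acids and drugs, did not overlap between the groups. Cyp2c29 read 1009, 1466 and 2151 CPM in the lowest, median and highest imatinib mouse and 529, 690 and 1001 CPM with L-NAME (1.03, SE 0.17, adjusted p = 0.00016). Cyp2c50 read 703, 837 and 951 CPM against 423, 519 and 569 CPM (0.72, SE 0.13, adjusted p = 0.0002). Cyp3a11, the main PXR target of mouse liver, differed less, with medians of 2210 and 1650 CPM (0.48, SE 0.13, adjusted p = 0.023), and lost its call without L-NAME mouse 10 or 45 or imatinib mouse 16 (adjusted p up to 0.071 over the alternatives). Cyp3a44 (2.93, adjusted p = 0.028) varied from 7.71 to 208 CPM among imatinib mice. Cyp3a44 and Cyp2b9 (0.56, adjusted p = 0.041) lost their calls in 8 and 14 of 24 alternative settings. Members of the Cyp2b, Cyp2c and Cyp3a families are close copies, so their reads may be shared or dropped.

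Conjugating enzymes attach glucuronic acid, glutathione or sulfate to what the P450 step leaves. Of 35 tested, 12 were higher with imatinib and none lower, with a median log2 fold change of 0.40. The count was 6, 7, 5 or 6 without L-NAME mouse 10, 26, 32 or 45, and 7 without imatinib mouse 51. Against control, 8 were higher and 0 lower with imatinib (median 0.14), and 1 was higher and 9 lower with L-NAME (median -0.15). Over all genes tested, 5.68% were higher than control with imatinib and 6.22% lower with L-NAME. Ugt1a9, a glucuronosyltransferase, read 25.1, 56.4 and 108 CPM in the lowest, median and highest imatinib mouse and 3.21, 13.7 and 20.6 CPM with L-NAME, without overlap (2.20, SE 0.40, adjusted p = 0.00063). Control mice, at 23.6 to 108 CPM, shared the range of imatinib: Ugt1a9 differed from control by -0.03 with imatinib (adjusted p = 0.98) and by -2.23 with L-NAME (adjusted p = 0.00019). Exons at the 3′ end of the Ugt1a genes are common to the family, and reads there cannot be given to a single gene.

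Ugt2b34, at 400 to 685 CPM with imatinib, 267 to 396 with L-NAME and 408 to 507 in control mice, showed the same order (0.66, SE 0.11, adjusted p = 0.00012). Ugt2b5 did not: it read 484, 581 and 670 CPM in the lowest, median and highest imatinib mouse and 293, 371 and 449 CPM with L-NAME (0.65, SE 0.12, adjusted p = 0.00047), and the control median of 364 CPM lay with L-NAME. Gsta3, a glutathione transferase, read 1330 to 1532 CPM with imatinib and 889 to 1322 with L-NAME, a small difference (0.40, adjusted p = 0.016) in which the groups barely missed each other. Gsta3 lost its call without L-NAME mouse 32 (adjusted p up to 0.06 over the alternatives).

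Beside these steps, Ephx1, the epoxide hydrolase that acts on P450 products, read 539, 729 and 980 CPM in the lowest, median and highest imatinib mouse and 278, 388 and 560 CPM with L-NAME (0.91, SE 0.17, adjusted p = 0.00047). Abcc3, which exports conjugates into the blood, read 365, 445 and 546 CPM against 212, 260 and 320 CPM, without overlap (0.74, SE 0.14, adjusted p = 0.00062). Abcc3 in control mice, at 279 to 468 CPM, overlapped with both groups. It was 1 of 2 drug transporters of 17 that were higher than with L-NAME. The other was the phospholipid exporter Abcb4 (0.44, adjusted p = 0.023), which lost its call in 3 of 24 alternative settings (adjusted p up to 0.088). Against control, the median over the transporters was -0.01 with imatinib and -0.33 with L-NAME.

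Further genes were among the 12 with the highest log2 fold changes at a mean of at least 5 CPM. Slc39a5, which encodes a zinc transporter, read 7.71, 24.4 and 34.8 CPM in the lowest, median and highest imatinib mouse and 0, 2.44 and 5.26 CPM with L-NAME, without overlap (3.17, SE 0.60, adjusted p = 0.00088). It was the single gene that passed of 13 metallothioneins and zinc transporters. Pcp4l1, at 21.3 to 60.7 against 2.09 to 18.6 CPM (1.68, adjusted p = 0.0003), did not overlap either. Gria3, a glutamate receptor subunit, read 4.36 to 16.4 against 0.424 to 5.32 CPM (1.99, adjusted p = 0.01), and Sult2a7, a sulfotransferase of steroids and bile acids, 2.14 to 77.3 against 0.793 to 7.70 CPM (2.95, adjusted p = 0.015). Sult2a7 lost its call without imatinib mouse 56 (adjusted p = 0.057), and Ces2c, a relative of Ces2e (1.95, adjusted p = 0.048), lost it in 17 of 24 alternative settings.

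Genes of cholesterol synthesis were higher with imatinib than with L-NAME. In the mevalonate pathway, which runs from acetyl-CoA to farnesyl diphosphate, 4 of 8 genes rose and none fell, with a median log2 fold change of 0.91. In the sterol branch, which turns farnesyl diphosphate into cholesterol, 7 of 11 rose and none fell, with a median of 0.88.

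Mvd, the decarboxylase that makes isoprenoid units, read 11.4, 36.9 and 66.9 CPM in the lowest, median and highest imatinib mouse and 1.98, 8.82 and 20.9 CPM with L-NAME (1.97, SE 0.39, adjusted p = 0.0015). In Mvd all 8 imatinib mice lay above the L-NAME median, although the ranges overlapped. Sqle, the squalene epoxidase, read 9.99, 46.2 and 142 CPM against 5.40, 10.7 and 15.5 CPM (2.36, SE 0.45, adjusted p = 0.001), with 6 imatinib mice above the L-NAME median.

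Hsd17b7, the sterol ketoreductase, was the member without overlap, at 47.0, 55.9 and 147 CPM in the lowest, median and highest imatinib mouse and 21.6, 31.9 and 41.0 CPM with L-NAME (1.14, SE 0.17, adjusted p = 2.4e-05). Nsdhl (1.34, adjusted p = 0.0013), Cyp51 (1.45, adjusted p = 0.00096) and Msmo1 (1.09, adjusted p = 0.018), which remove the methyl groups of lanosterol, rose too, as did the synthase Hmgcs1 (1.10, adjusted p = 0.0044) and squalene synthase Fdft1 (0.71, adjusted p = 0.016). Dhcr7 (0.88, adjusted p = 0.015), the last reductase, and Acat2 (0.71, adjusted p = 0.019), the first thiolase, were likewise higher. Msmo1, Dhcr7 and Acat2 lost their calls without imatinib mouse 51 or 56, Acat2 also without imatinib mouse 6 or L-NAME mouse 45, and Fdft1 without imatinib mouse 56 or L-NAME mouse 32, with adjusted p over all alternatives of up to 0.16, 0.2, 0.076 and 0.074. With the 16 mice fitted alone Hmgcs1 and Cyp51 missed the threshold (adjusted p = 0.11 and 0.058), and Hmgcs1 did so with limma voom too (adjusted p = 0.058). Fdps, which makes farnesyl diphosphate (1.28, adjusted p = 0.04), passed narrowly and lost its call in 16 of 24 alternative settings.

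The spread among imatinib mice was wide, and the same mice were high in most of these genes. Mice 51 and 56 were among the 2 highest imatinib mice in 10 of the 11 called genes each, and mice 6, 51 and 56 were among the 4 highest in all 11. Summed over the 19 genes of both lists, imatinib mice ran from 1413 to 4247 CPM with a median of 1835, L-NAME mice from 1270 to 1731 CPM with a median of 1401, and control mice from 1420 to 2056 CPM with a median of 1728. Imatinib mice 6, 51 and 56 (2653, 3306 and 4247 CPM) lay above every control mouse, while mice 11, 27 and 39 (1413, 1450 and 1526 CPM) lay within the range of L-NAME. Without imatinib mouse 51 the genes that rose were 2 of 8 and 5 of 11, and without imatinib mouse 56 they were 2 of 8 and 4 of 11. Without imatinib mouse 6 or L-NAME mouse 45, or with limma voom, 2 of the mevalonate genes passed. With the 16 mice fitted alone the counts were 2 and 4. Imatinib mice 51 and 56 also stood apart beyond these genes. The chi-square per gene between their counts was 13.3, against 36.3 to 52.3 between either and the other imatinib mice. Among those others it was 15.3 to 26.8. Mice 51 and 56 had the highest hepatocyte marker sums of the group (153200 and 157600 CPM) and the lowest shares of reads outside genes (8.44 and 8.16%). The reason was not tested.

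**Figure D2:**
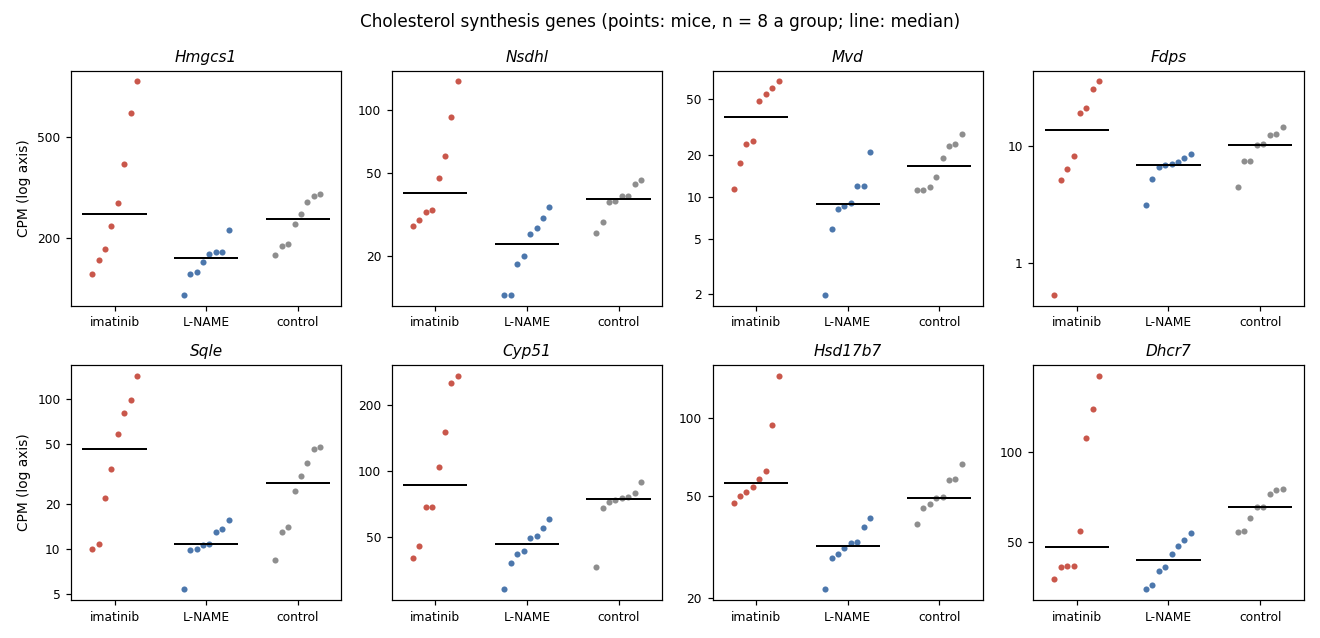
CPM on log axes for 8 cholesterol synthesis genes in imatinib, L-NAME and control mice, 8 each; points are mice and lines are medians. The L-NAME median is the lowest of the 3 in each panel, as in Sqle at 10.7 CPM against 46.2 with imatinib and 27.4 in controls, and the imatinib mice run from 145 to 825 CPM in Hmgcs1.

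Each group was also set against the same 8 control mice. Control libraries differed from these groups in several shares of reads, given under other observations, and the part of this in the contrasts was not tested. Over all genes tested, 10.2% differed between imatinib and control (5.68% higher and 4.5% lower with imatinib) and 11.7% between L-NAME and control (5.48% higher and 6.22% lower with L-NAME). The median over the mevalonate genes was 0.56 for imatinib over control and -0.38 for L-NAME over control, and over the sterol branch 0.65 and -0.35. With imatinib 2 of the 8 and 3 of the 11 genes rose against control, and with L-NAME 0 of the 8 and 2 of the 11 fell. Sqle differed from control by 1.04 with imatinib (adjusted p = 0.11) and by -1.32 with L-NAME (adjusted p = 0.04), and Fdft1 by 0.77 (adjusted p = 0.003) and 0.06 (adjusted p = 0.9).

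The windows before 5 of the genes that rose are shown because the genes moved together and are textbook targets of SREBP2. Each holds the 250 bases before the RefSeq start (GRCm38.p6), 5′ to 3′ along the gene. Capitals mark CCAAT, the box bound by NF-Y, a partner of SREBP2, and TCACNCCAC, a form of the sterol regulatory element, on either strand. Hmgcs1 is chr13:119690101-119690350 (plus strand), Mvd chr8:122443423-122443672 (minus), Cyp51 chr5:4104698-4104947 (minus), Hsd17b7 chr1:169969206-169969455 (minus) and Msmo1 chr8:64733579-64733828 (minus).
Hmgcs1: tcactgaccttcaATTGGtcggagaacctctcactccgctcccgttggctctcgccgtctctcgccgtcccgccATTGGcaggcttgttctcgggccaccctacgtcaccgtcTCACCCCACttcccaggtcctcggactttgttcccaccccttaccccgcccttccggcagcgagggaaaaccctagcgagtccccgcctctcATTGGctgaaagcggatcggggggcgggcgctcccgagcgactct
Mvd: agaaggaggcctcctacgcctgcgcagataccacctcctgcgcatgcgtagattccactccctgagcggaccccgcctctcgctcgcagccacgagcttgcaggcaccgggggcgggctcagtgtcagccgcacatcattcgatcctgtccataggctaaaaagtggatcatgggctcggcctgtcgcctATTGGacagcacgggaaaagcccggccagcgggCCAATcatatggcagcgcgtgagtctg
Cyp51: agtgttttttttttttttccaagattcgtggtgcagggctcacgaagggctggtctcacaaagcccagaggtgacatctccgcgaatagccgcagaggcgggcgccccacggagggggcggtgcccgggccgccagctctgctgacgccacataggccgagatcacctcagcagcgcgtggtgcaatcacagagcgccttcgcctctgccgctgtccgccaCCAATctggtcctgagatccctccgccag
Hsd17b7: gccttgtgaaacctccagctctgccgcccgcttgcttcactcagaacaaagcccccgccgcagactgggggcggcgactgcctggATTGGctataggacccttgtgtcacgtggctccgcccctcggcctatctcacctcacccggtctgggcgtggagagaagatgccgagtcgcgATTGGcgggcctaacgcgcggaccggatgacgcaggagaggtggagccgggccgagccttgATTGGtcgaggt
Msmo1: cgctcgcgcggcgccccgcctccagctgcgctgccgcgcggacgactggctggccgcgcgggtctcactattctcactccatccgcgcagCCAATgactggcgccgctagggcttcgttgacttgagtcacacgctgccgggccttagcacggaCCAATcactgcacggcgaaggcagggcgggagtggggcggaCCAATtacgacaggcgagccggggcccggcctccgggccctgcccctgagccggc

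Hmgcs1 holds TCACNCCAC at -137 to -129 and CCAAT at 3 places apart from it. Mvd, Cyp51, Hsd17b7 and Msmo1 hold CCAAT at 2, 1, 3 and 3 places. The RefSeq table held a window for 16 of the 19 genes of both lists, and 15 of these genes held CCAAT, beside 33.8% of all windows. A gene counted when any of its windows matched, while the share is over single windows, so the measures are not alike. TCACNCCAC was in 1 of the 16 and in 1.05% of all windows. GCGTG, the AhR core shown above for Cyp1a1, was in 10 of the 16. These matches describe the letters and no binding was measured.

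Other genes that handle sterols were mixed. Of 17 regulators of SREBP2 and of LDL uptake 1 rose and 1 fell. Stard4, which carries cholesterol inside the cell, rose from 60.4 to 102 CPM with L-NAME to 74.7 to 168 with imatinib (0.70, SE 0.17, adjusted p = 0.014). Soat1, which esterifies cholesterol in macrophages, read 5.46 to 17.4 against 12.7 to 24.9 CPM (-0.86, adjusted p = 0.019) and lost its call in 5 of 24 alternative settings. Srebf2, which encodes SREBP2, was short of the threshold (0.48, adjusted p = 0.067). Against control it was lower with L-NAME, with a log2 fold change of -0.62 (adjusted p = 0.0034).

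In bile acid synthesis and sterol export 3 of 25 rose and 1 fell. Cyp8b1, the hydroxylase that sets the mix of bile acids, read 124, 179 and 414 CPM in the lowest, median and highest imatinib mouse and 55.8, 88.3 and 142 CPM with L-NAME (1.13, SE 0.27, adjusted p = 0.0099), and lost its call without imatinib mouse 56 (adjusted p = 0.055). Cyp7a1, the rate-limiting enzyme of bile acid synthesis, had medians of 95.1 and 100 CPM (0.05, SE 0.50). Abcg1, a cholesterol exporter of macrophages, fell: it read 10.1 to 22.3 CPM with imatinib and 18.8 to 64.5 with L-NAME (-1.03, adjusted p = 0.014, or adjusted p = 0.059 without L-NAME mouse 32).

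Genes under PPARα, the receptor that drives fatty acid oxidation, were higher in 11 of 39 and lower in none, with a median log2 fold change of 0.37. The count was 6 without imatinib mouse 11 or 16 or L-NAME mouse 32, 45 or 50, and 7 without imatinib mouse 6 or L-NAME mouse 26 or 38, with the 16 mice alone or without the filter on low counts. Cyp4a31, a fatty acid hydroxylase, read 22.9, 33.0 and 55.4 CPM in the lowest, median and highest imatinib mouse and 5.18, 14.3 and 23.3 CPM with L-NAME (1.32, SE 0.25, adjusted p = 0.00052). Hadha, a subunit of the mitochondrial trifunctional protein, read 346, 412 and 538 CPM against 272, 296 and 346 CPM (0.50, SE 0.10, adjusted p = 0.0021). In both genes the lowest imatinib mouse lay just below the highest L-NAME mouse. The peroxisomal enzyme Ehhadh (0.76, adjusted p = 0.0056), Cyp4a10 (0.85, adjusted p = 0.015) and the PPARα target Vnn1 (0.84, adjusted p = 0.016) rose too. Cpt1a, the gate of mitochondrial import, did not pass (0.11, SE 0.16).

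Against control, 22 of the 39 PPARα genes rose with imatinib, and 3 rose and 3 fell with L-NAME. The members took different positions. Cyp4a10 was 1.17 above control with imatinib (adjusted p = 0.00024) and 0.32 with L-NAME (adjusted p = 0.38). Hadha differed from control by 0.04 with imatinib (adjusted p = 0.89) and by -0.46 with L-NAME (adjusted p = 0.0015).

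In lipid transport, Sar1b, a coat protein for lipoprotein export, read 200 to 305 CPM with imatinib and 169 to 224 with L-NAME (0.47, adjusted p = 0.0032). Mttp, which loads lipid onto apolipoprotein B, read 228 to 469 against 180 to 268 CPM (0.50, adjusted p = 0.0085, or adjusted p = 0.058 without imatinib mouse 51). These were the 2 genes that passed of 17 apolipoproteins and partners. Lpl, the lipoprotein lipase, fell: it read 17.0, 43.6 and 64.9 CPM in the lowest, median and highest imatinib mouse and 61.4, 125 and 260 CPM with L-NAME (-1.68, SE 0.31, adjusted p = 0.00083), so that the highest imatinib mouse just entered the range of L-NAME. Scd2, a desaturase, fell (-1.04, adjusted p = 0.0022) and malic enzyme Me1 rose (1.07, adjusted p = 0.015), the 2 of 24 lipogenic genes that passed. Me1 lost its call without L-NAME mouse 10 and imatinib mouse 21 together (adjusted p = 0.077). Against control, the median over the lipogenic genes was -0.06 with imatinib (1 higher, 3 lower) and -0.36 with L-NAME (0 higher, 9 lower).

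Of 20 pericentral genes, which mark hepatocytes around the central vein, 3 rose: Cyp1a2, Glul and Aldh1a1. Glul, glutamine synthetase, read 1154, 1711 and 2033 CPM in the lowest, median and highest imatinib mouse and 844, 1084 and 1519 CPM with L-NAME (0.57, SE 0.11, adjusted p = 0.0012). Aldh1a1, a retinal dehydrogenase, read 1028, 1272 and 1691 CPM against 657, 694 and 1138 CPM (0.79, SE 0.15, adjusted p = 0.00054). The control medians lay between in both genes, and L-NAME was below control by -0.41 (adjusted p = 0.011) in Glul and -0.49 (adjusted p = 0.018) in Aldh1a1. Of 20 periportal genes Cyp2f2 rose (0.64, adjusted p = 0.0052, or adjusted p = 0.059 without L-NAME mouse 10 and imatinib mouse 21), with a control median of 465 CPM beside 417 with imatinib and 255 with L-NAME.

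**Figure D3:**
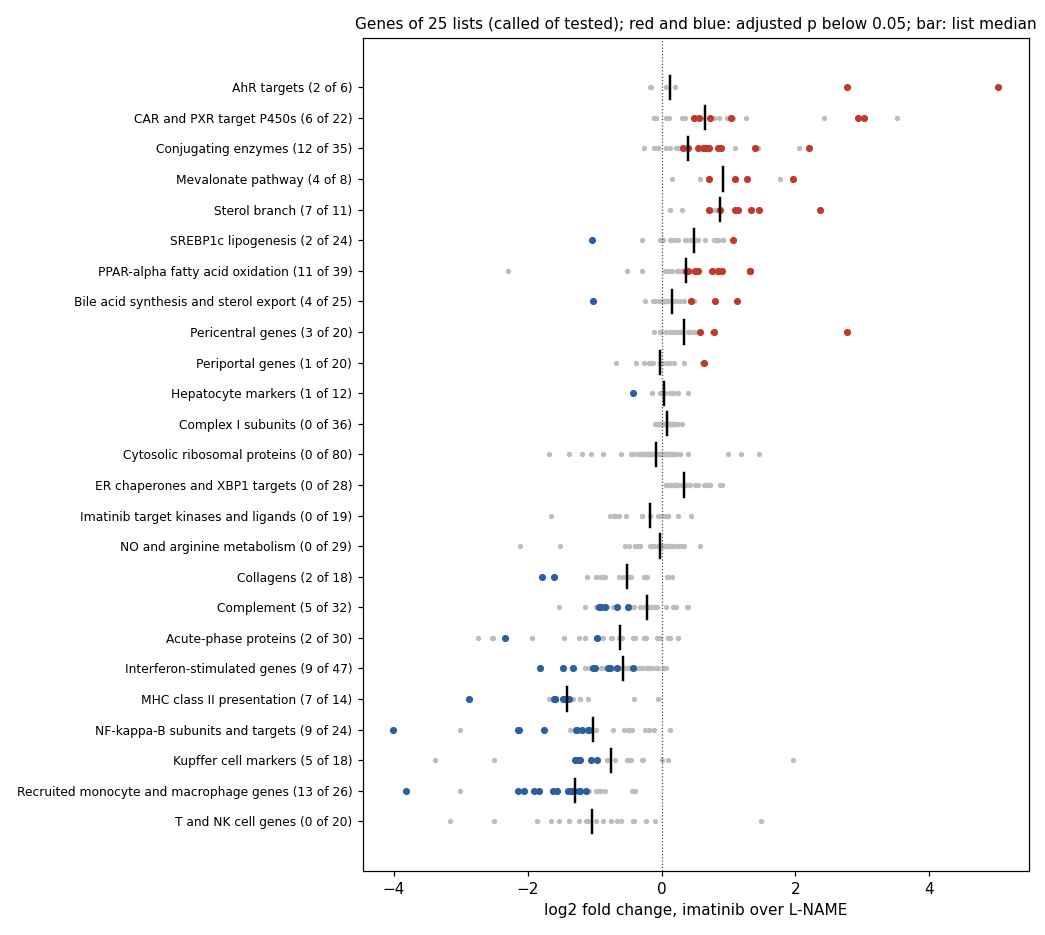
Log2 fold change of imatinib over L-NAME for the tested genes of 25 lists; coloured points passed an adjusted p of 0.05, grey points did not, and the black bar is the list median. The 13 macrophage genes and 7 MHC class II genes that passed lie to the left, the 11 cholesterol synthesis genes that passed to the right, and complex I (36 genes) and cytosolic ribosomal proteins (80 genes) hold none that passed.

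Genes of macrophages and antigen presentation were lower with imatinib than with L-NAME. None of them was among the 5 genes in which imatinib stood apart from each other group. Of 26 genes of recruited monocytes and macrophages 13 fell and none rose (median log2 fold change -1.30), of 18 Kupffer cell markers 5 fell (median -0.75) and of 14 genes of MHC class II presentation 7 fell (median -1.42). The macrophage count was 8 without L-NAME mouse 32 and 7 without L-NAME mouse 10 and imatinib mouse 21, the Kupffer count was 3 without L-NAME mouse 10 or 32 or imatinib mouse 51 or 56, and the MHC class II count did not go below 6. Low levels were not confined to imatinib. Summed, the 14 MHC class II genes ran from 198 to 359 CPM with imatinib and 446 to 1097 with L-NAME. With ponatinib they ran from 180 to 537 CPM at 10 mg/kg and 199.8 to 654.5 at 3 mg/kg. With nilotinib they ran from 398 to 1827 CPM at 10 mg/kg and 454 to 2000 at 30 mg/kg.

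Gpnmb, a lysosomal glycoprotein of lipid-laden macrophages, had the lowest log2 fold change in the macrophage list. It read 0.298, 3.499 and 9.67 CPM in the lowest, median and highest imatinib mouse and 1.63, 39.3 and 162 CPM with L-NAME (-3.82, SE 0.85, adjusted p = 0.0054). The overlap came from L-NAME mouse 55 alone, at 1.63 CPM, and with limma voom Gpnmb missed the threshold (adjusted p = 0.3). Lyz2, the lysozyme of myeloid cells, read 71.6, 92.6 and 160 CPM against 116, 290 and 477 CPM (-1.57, SE 0.30, adjusted p = 0.0011). Tlr2, a sensor of bacterial lipoproteins, read 1.68, 3.04 and 7.29 CPM against 4.44, 15.9 and 27.2 CPM (-2.05, SE 0.41, adjusted p = 0.0015). All 8 imatinib mice lay below the L-NAME median in these genes. Mpeg1 (-1.23, adjusted p = 0.0019), a pore-forming protein of phagocytes, and Lgals3 (-1.83, adjusted p = 0.0043), a galectin, fell too. Trem2 (-1.90, adjusted p = 0.023), a lipid receptor, lost its call without L-NAME mouse 10 or 32 or imatinib mouse 51 or 56 (adjusted p up to 0.095 over the alternatives).

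Among the Kupffer cell markers, Cd5l, a secreted protein of tissue macrophages, read 176, 250 and 339 CPM in the lowest, median and highest imatinib mouse and 341, 615 and 867 CPM with L-NAME, without overlap (-1.30, SE 0.25, adjusted p = 0.001). The folate receptor Folr2 (-1.22, adjusted p = 0.0056) and Il18bp (-1.25, adjusted p = 0.0047), which binds interleukin-18, fell. Cd68 (-1.05, adjusted p = 0.021) lost its call in 5 of 24 alternative settings. The markers that define resident Kupffer cells most narrowly did not pass: Clec4f read 127 to 289 against 200 to 366 CPM (-0.52, adjusted p = 0.15), Timd4 6.90 to 21.6 against 8.73 to 33.8 CPM (-0.50, adjusted p = 0.71) and Vsig4 22.5 to 63.0 against 52.0 to 119 CPM (-0.81, adjusted p = 0.057). Clec4f was above control with L-NAME, by 0.69 (adjusted p = 0.012). Csf1r, the receptor that imatinib can block, read 46.2 to 86.3 against 52.4 to 188 CPM (-0.70, adjusted p = 0.17).

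Beside these genes, the median summed levels of the macrophage, Kupffer, neutrophil and T and NK cell lists were lower with imatinib than with L-NAME. The 27 monocyte and macrophage genes summed to 363 to 578 CPM with imatinib, 548 to 1761 with L-NAME and 583 to 1668 in control mice. The 18 Kupffer markers summed to 817 to 1458, 1196 to 2440 and 1178 to 2150 CPM. With ponatinib at 10 mg/kg the monocyte and macrophage sums ran from 397 to 1326 CPM. Neutrophil genes, 13 of them, summed to 13.8 to 52.9 CPM with imatinib, 53.1 to 413 with L-NAME and 40.7 to 157 in control mice. The sums of neutrophil genes and of 22 T and NK cell genes (27.3 to 37.8, 39.4 to 68.2 and 28.9 to 43.1 CPM) did not overlap between imatinib and L-NAME, by narrow gaps. No gene of either list passed with edgeR, of 5 and 20 tested, beside 2 and 4 at an unadjusted p below 0.05, 2 and 0 with DESeq2 and 1 and 3 with limma voom. The median T and NK cell sum was 32.8 CPM with imatinib and 33.1 CPM in control mice, while the macrophage medians were 418 and 1220 CPM. Hepatic stellate cell markers (525.8 to 796 against 562 to 873 CPM) and sinusoidal endothelial markers (659 to 1026 against 626 to 1090 CPM) overlapped, as did the sums of hepatocyte, B cell, cholangiocyte and red blood cell genes. No marker of these cell types was at 0 in all 16 mice, and the part of cell numbers in the results was not tested.

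MHC class II molecules show peptides to helper T cells. The class II chain H2-Ab1 read 19.6, 36.9 and 49.3 CPM in the lowest, median and highest imatinib mouse and 52.8, 106 and 148 CPM with L-NAME (-1.60, SE 0.35, adjusted p = 0.005). The invariant chain Cd74 read 66.6, 94.7 and 127 CPM against 145, 258 and 358 CPM (-1.46, SE 0.33, adjusted p = 0.0056). No imatinib mouse reached the lowest L-NAME mouse in these genes, nor in H2-Aa (-1.59, adjusted p = 0.0073), H2-Eb1 (-1.61, adjusted p = 0.0056) and Ctss (-1.47, adjusted p = 0.0027), the protease that trims the invariant chain. The costimulator Cd86 fell (-1.39, adjusted p = 0.0011). Cd40 (-2.88, adjusted p = 0.025) did so with a call that was lost in 5 of the 23 alternative settings in which it was tested. Control mice were spread over both ranges, from 91.6 to 382 CPM in Cd74, and Cd74 differed from control by -1.42 with imatinib (adjusted p = 0.0031) and 0.04 with L-NAME (adjusted p = 0.96).

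**Figure D4:**
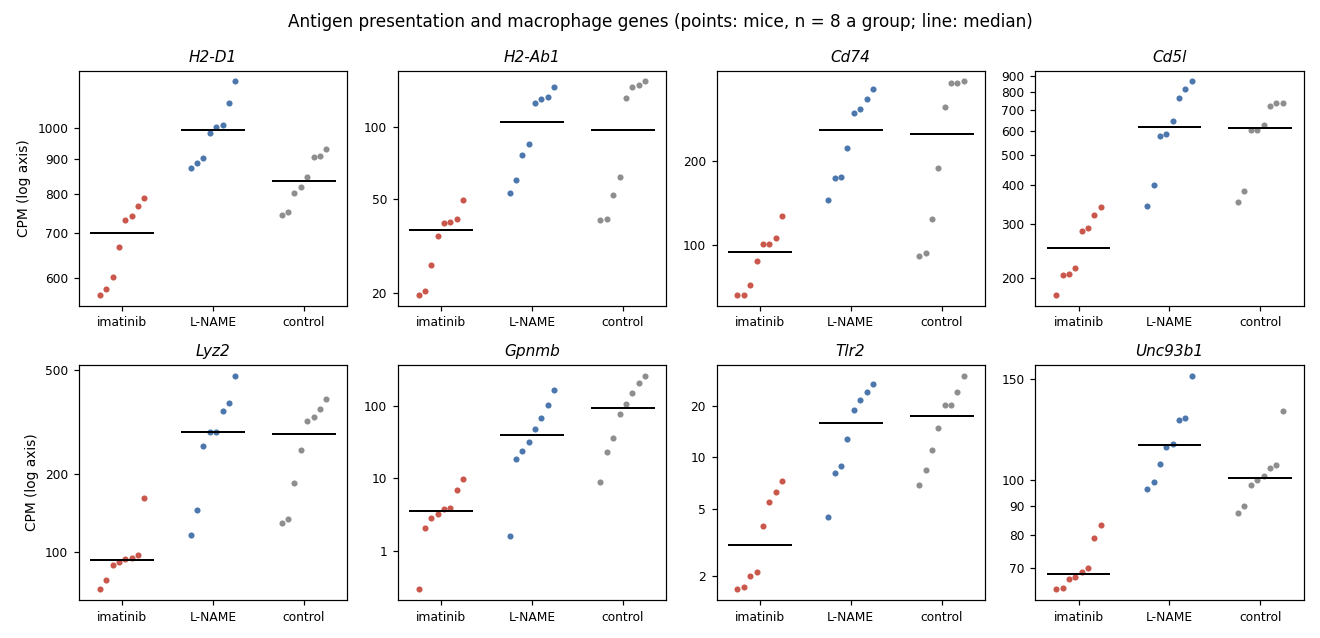
CPM on log axes for 8 genes of antigen presentation and macrophages in imatinib, L-NAME and control mice, 8 each; points are mice and lines are medians. In H2-D1, H2-Ab1, Cd74, Cd5l and Unc93b1 every imatinib mouse lies below every L-NAME mouse, as in H2-D1 at 567 to 788 against 874 to 1174 CPM.

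The genes that fell with the smallest p-values were H2-D1, Dok2, H2-Q4, Unc93b1, Arhgap25 and Sat1. H2-D1, an MHC class I heavy chain on chromosome 17, read 567, 699 and 788 CPM in the lowest, median and highest imatinib mouse and 874, 994 and 1174 CPM with L-NAME, with control mice at 745 to 933 CPM (-0.54, SE 0.092, adjusted p = 0.00015). H2-Q4, a class I gene of the Qa region, read 47.9 to 98.0 against 122 to 150 CPM (-0.89, adjusted p = 0.00019). Class I genes are near-identical in part of their length, so reads may be shared or dropped. Unc93b1, which carries endosomal toll-like receptors, read 64.2 to 83.1 against 96.2 to 152 CPM (-0.74, adjusted p = 0.00019). The groups did not overlap in these genes, nor in Dok2, an adaptor of blood cells (0.975 to 4.55 against 6.78 to 23.2 CPM, -2.04, adjusted p = 0.00015), and Arhgap25, a regulator of phagocytes (1.40 to 6.61 against 12.0 to 21.4 CPM, -1.71, adjusted p = 0.0002). Sat1, a polyamine acetyltransferase, fell by 0.71 on the log2 scale (adjusted p = 0.00026), and its control median of 92.8 CPM lay near the 83.9 of imatinib and below the 144 of L-NAME.

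Among the genes that passed with a mean of at least 5 CPM in the higher group, Acod1, Gpnmb and Rgs1 had the lowest log2 fold changes. Acod1, which makes itaconate, read 0, 0.428 and 1.57 CPM in the lowest, median and highest imatinib mouse and 2.54, 8.02 and 16.3 CPM with L-NAME, without overlap (-4.10, SE 0.89, adjusted p = 0.0043), and 3 imatinib mice had no read. The G protein regulator Rgs1 read 0 to 1.71 against 1.18 to 21.2 CPM (-2.92, adjusted p = 0.0013), and the acute-phase protein Saa3 2.51 to 22.5 against 20.7 to 59.4 CPM (-2.34, adjusted p = 0.0027). The podosome adaptor Sh3pxd2b (-2.20, adjusted p = 0.0024) fell, and the chemokine receptor Cxcr4 (-2.22, adjusted p = 0.02) did so with a call lost without L-NAME mouse 32 or imatinib mouse 56. The calls of the chemokines Ccl2 (-2.15, adjusted p = 0.035) and Cxcl1 (-2.13, adjusted p = 0.036), of Slfn4 (-2.03, adjusted p = 0.033) and of the receptor Tlr13 (-2.01, adjusted p = 0.031) were each lost in 12 of 24 alternative settings.

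In the wider inflammatory lists the genes that passed had all fallen. Of 24 genes of NF-κB, the inflammatory transcription factor, and its targets 9 fell, with a median log2 fold change of -1.03. The count was 4 or 5 without L-NAME mouse 10 or 32 and 5 without imatinib mouse 16, 51 or 56. The subunit Nfkb2 read 7.80, 11.2 and 18.6 CPM in the lowest, median and highest imatinib mouse and 13.8, 25.8 and 36.4 CPM with L-NAME (-1.09, SE 0.23, adjusted p = 0.0025). The chemokine Cxcl16 (-1.19, adjusted p = 0.0021), the feedback inhibitor Tnfaip3 (-1.76, adjusted p = 0.0074) and the adhesion molecule Icam1 (-1.10, adjusted p = 0.014) fell as well.

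Of 47 interferon-stimulated genes 9 fell, with a median log2 fold change of -0.57. The count was 3 to 5 without imatinib mouse 6, 16, 51 or 56 or without L-NAME mouse 10, 26, 32, 45 or 50. Psmb9 and Psmb8, subunits of the immunoproteasome, did not overlap between the groups. Psmb9 read 8.40 to 24.6 CPM with imatinib and 32.3 to 46.4 with L-NAME (-0.99, adjusted p = 0.0067), and Psmb8 28.5 to 58.6 against 62.3 to 86.1 CPM (-0.66, adjusted p = 0.019, or adjusted p up to 0.061 without imatinib mouse 51 or 56). Among the classical antiviral genes, Isg15 (-0.63, adjusted p = 0.46), Rsad2 (-0.55, adjusted p = 0.53) and Ifit1 (-0.21, adjusted p = 0.86) did not pass.

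Of 30 acute-phase proteins 2 fell against L-NAME, Saa3 and Hpx, and the list median was -0.62. Against control the list median was -0.26 with imatinib and 0.40 with L-NAME, beside -0.022 and 0.019 over all genes tested. Hpx, the heme scavenger hemopexin made by hepatocytes, read 3412, 4156 and 4335 CPM in the lowest, median and highest imatinib mouse and 6226, 7382 and 10110 CPM with L-NAME, without overlap (-0.97, SE 0.22, adjusted p = 0.006). Haptoglobin, Hp, at 2379 to 4133 against 4221 to 7781 CPM (-0.94, adjusted p = 0.051), and Saa1, at 17.5 to 69.0 against 95.5 to 458 CPM (-2.52, adjusted p = 0.15), did not overlap either yet missed the threshold. Of 18 collagens 2 fell. Col3a1 read 25.0 to 42.8 CPM with imatinib, 32.5 to 221 with L-NAME and 61.2 to 362 in control mice (-1.61, adjusted p = 0.023 against L-NAME), and lost its call without L-NAME mouse 32 and with limma voom (adjusted p up to 0.09). Col1a1 (-1.79, adjusted p = 0.0499) lost its call in 19 of 24 alternative settings. Against control, 10 of the collagens fell with imatinib and 3 with L-NAME.

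Neither the kinases that imatinib binds nor the genes of nitric oxide and arginine metabolism held one that passed with edgeR. Of 19 imatinib target kinases, their ligands and partners 0 passed, 4 had an unadjusted p below 0.05, and DESeq2 and limma voom called 0 and 2. Abl1 read 33.3 to 60.04 CPM with imatinib and 35.0 to 62.0 with L-NAME (-0.04, SE 0.14), Kit 4.88 to 15.2 against 4.76 to 14.2 CPM (-0.18, SE 0.29) and Pdgfra 4.84 to 14.4 against 3.78 to 13.9 CPM (0.07, SE 0.27). Of 29 genes of nitric oxide and arginine metabolism 0 passed with edgeR, DESeq2 or limma voom, and 3 had an unadjusted p below 0.05. The endothelial synthase Nos3 read 2.78 to 7.66 against 2.43 to 10.5 CPM (-0.40, SE 0.38), and arginase Arg1 992 to 1445 against 790 to 1484 CPM (0.13, SE 0.12). Nos1 and Nos2 had too few reads to be tested. A p that misses the threshold does not show that the levels were equal.

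In all, 128 of the 1227 genes of the 54 lists (10.4%) differed with edgeR, beside 3.05% of all genes tested. The lists were chosen with earlier results of these data known, so the higher share is not a result about them. Of the 54 lists 20 held no gene that passed. Of these 20, DESeq2 called members in 6 and limma voom in 8, and 16 held members at an unadjusted p below 0.05. Complex I (36 genes, median 0.08) and the cytosolic ribosomal proteins (80 genes, median -0.08) held 0 with edgeR, DESeq2 or limma voom, beside 1 and 6 at an unadjusted p below 0.05. The 28 chaperones of the endoplasmic reticulum held 0 with edgeR and 1 with DESeq2 and with limma voom, and 15 at an unadjusted p below 0.05. All 28 had log2 fold changes above 0, from 0.07 to 0.90, and 14 of them were lower than control with L-NAME.

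**Figure D5:**
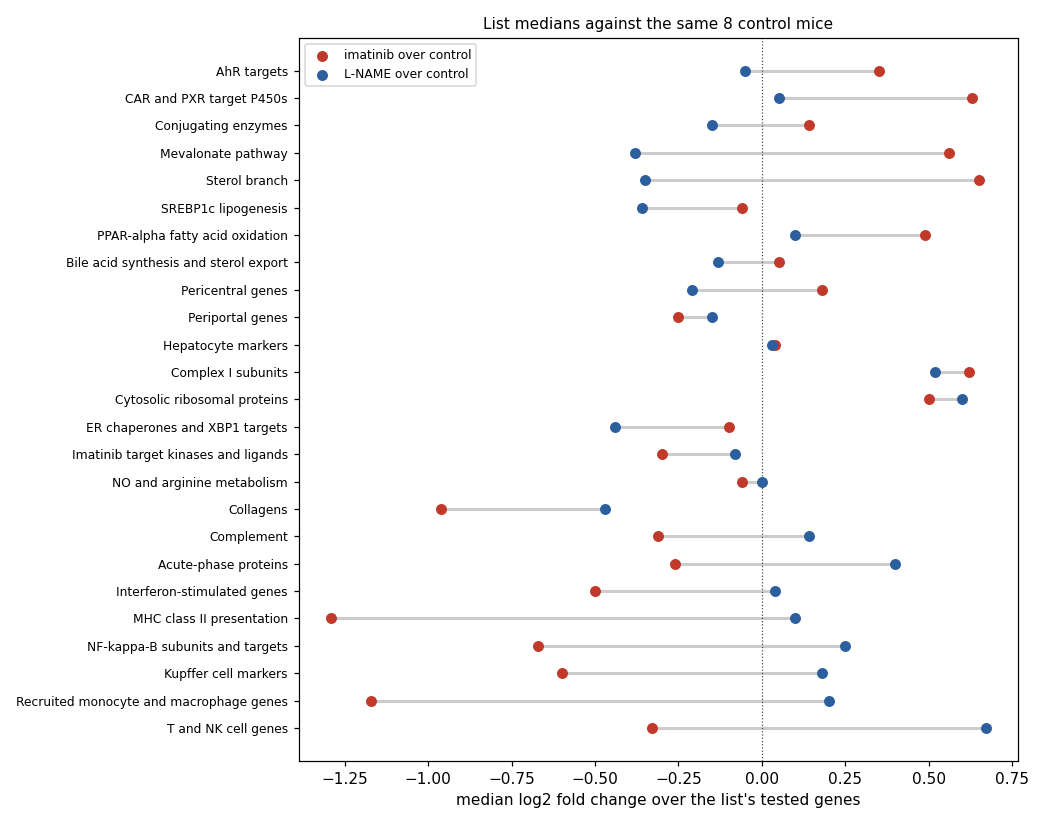
Median log2 fold change over the tested genes of 25 lists for imatinib over control and for L-NAME over control, which share the same 8 control mice. MHC class II genes (-1.29 and 0.10) and macrophage genes (-1.17 and 0.20) lie below control with imatinib, the mevalonate genes (0.56 and -0.38) lie on both sides of it, and complex I (0.62 and 0.52) and cytosolic ribosomal proteins (0.50 and 0.60) lie above it in both groups.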

How the data were processed

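Liver RNA of each mouse was sequenced by the authors, and the deposited files hold whole-number counts of reads per gene, 1 file per mouse. The submitters' processing notes and the study's methods name TopHat2 2.0.14 with Bowtie2 2.1.0 for alignment to GRCm38, SAMtools 0.1.18 and HTSeq 0.6.1p1 for counting; reads on several genes were set aside, which lowers near-identical families. The 5 closing lines of each file, reads on no single gene, stayed out of library sizes. They hold 8.16 to 16.8% of uniquely aligned reads outside genes in the 16 mice.

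Groups came from the treatment labels. All 56 mice were fitted together by edgeR 4.0.16 (R 4.3.3) with quasi-likelihood tests (glmQLFit, glmQLFTest; 49 residual degrees of freedom), TMM scaling and filterByExpr, and imatinib was set against L-NAME, control and each other group. For the contrast with all 6 groups the largest of the 6 p-values was adjusted by Benjamini-Hochberg. CPM values used TMM library sizes. Log2 fold changes carry a prior count of 0.125. Alternatives were DESeq2 1.42.0, limma 3.58.1 (voom with quality weights), RLE scaling, no filter, the 16 mice alone, the share outside genes as a covariate, p below 0.01 and each mouse left out. A fit without L-NAME mouse 10 and imatinib mouse 21 was added after seeing the data. The tests were checked on simulated counts, in which genes varied independently and the other 6 groups shared the same means. In the real mice many genes moved together and those groups differed, so the simulated rates may not hold for them. False calls were 6 of 150 with edgeR, 6 of 146 with limma voom and 17 of 166 with DESeq2. The contrast with all 6 groups recovered 16.4% of 1.5-fold, 52.2% of 2-fold and 93.9% of 4-fold changes, so it can miss smaller differences. No replicates differed by less than counting noise. The p-values test each contrast against a spread between mice estimated over all 56 mice, not over the 16 alone. Standard errors were derived from the log2 fold change and the F statistic of the test.

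Named were the 12 called genes with the highest and lowest log2 fold change (mean of at least 5 CPM), the 6 smallest p-values in each direction, the 10 smallest for all groups, and up to 6 members of each of 54 gene lists; members that did not pass, such as Cpt1a, Timd4, Vsig4, Isg15, Hp and Saa1, were partly chosen after their values were seen. Some genes are not reported here and were left out of the lists. The groups and lists were chosen with earlier results of these data known. Gene positions are from GENCODE M21 (GRCm38) and promoter windows from RefSeq GRCm38.p6. An interval for a gene with no read covers counting error only: 3 counts were taken as the limit, 0.0287 to 0.444 CPM. No column of another series was used.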

Additional observations from a re-analysis of the deposited data

Results flagged for a closer look

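In 24 of 234 sets of 8 values the most extreme mouse stood apart from the other 7 by more than Dixon's critical value of 0.526 of the range, 13 with imatinib and 11 with L-NAME. For normally distributed values chance alone gives about 1 in 20 such sets. The values were not put on a log scale and the sets share mice, so the 24 cannot be set against that rate. The explanations were not tested.

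Among the library measures, L-NAME mouse 10 held 97473341 reads on genes against 8983406 in the next mouse, and placed 16.75% of uniquely aligned reads (10.39% of all alignments counted) outside genes against 10.84% (6.96%) in the next. Imatinib mouse 21 placed 14.09% (8.808%) there, against 10.45% (6.555%) in the next.

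L-NAME mouse 50 was high in genes of drug metabolism that were lower in the other L-NAME mice. It read 12.16 CPM in Cyp2b10 (next 3.64), 6.61 CPM in Ces2c (next 2.684), 104.6 CPM in Gstp1 (next 65.37) and 1138 CPM in Aldh1a1 (next 779.4). L-NAME mouse 5 was high in the PPARα target Cyp4a10 (1074 CPM, next 668.3), and L-NAME mouse 38 in Sar1b (224.3 CPM, next 194.9). L-NAME mouse 32, with the highest macrophage sum of its group, was high in Dok2 (23.15 CPM, next 14.28) and Arhgap25 (21.37 CPM, next 15.98).

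Among imatinib mice, number 39 was high in the myeloid genes Lyz2 (160.3 CPM, next 96.82), Mpeg1 (155.7 CPM, next 108.8) and Cd86 (14.71 CPM, next 8.479), and also in Gm26917 (896 CPM, next 470.9) and Cyp2d9 (139.1 CPM, next 68.63). Number 11 was high in Saa3 (22.52 CPM, next 10.58), Slfn4 (7.551 CPM, next 3.411), Trem2 (11.79 CPM, next 5.552) and Itgb2 (23.32 CPM, next 14.86), and number 16 in Msr1 (21.21 CPM, next 13.85). Number 51 had 0 CPM in Rgs1, where the next lowest mouse read 1.267 CPM. In each of these myeloid genes the highest imatinib mouse still lay below the L-NAME median, apart from Trem2 and Msr1.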

How the results depend on the processing

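No paired analysis was possible because the groups share no replicate number. Of 109 called genes followed through 24 alternative settings (23 for Cd40) none changed direction, 62 kept their call in all of them and 47 lost it in at least 1. The setting at an unadjusted p below 0.01, 1 of the 24, reused the main fit. It could change neither a call nor a direction for these genes. Of the 436 genes (171 higher, 265 lower), limma voom gave 683 with 448 lower, and the other tools and scalings stayed within 1.5 times: 579 with DESeq2, 418 with RLE scaling, 323 without the filter, 460 with the 16 mice alone and 337 with the share outside genes as a covariate. At an unadjusted p below 0.01 the counts were 937, 402 higher and 535 lower, with 81 genes apart from all 6 groups and 227 genes in the lists. Leaving out 1 mouse gave 236 to 477 genes, 88 to 184 higher, 146 to 300 lower, 3 to 5 apart from all groups and 74 to 140 in the lists. The lowest values came without L-NAME mouse 32 or imatinib mouse 51, and 3 without imatinib mouse 39. Without L-NAME mouse 10 and imatinib mouse 21, a setting chosen after seeing the data, there were 259 genes, 102 higher and 157 lower, and 81 in the lists, with the same 5 genes apart from all groups. Those 5 also remained with DESeq2, RLE scaling, no filter and the covariate, and limma voom added Htatip2. With limma voom, Fdps had a log2 fold change of 0.51. Why these values moved was not tested, beyond the smaller groups. Acod1, Rgs1, Cd40, Cyp1a1 and Slc39a5 have mice without a read, so their log2 fold changes are imprecise.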

Other observations

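Subunits of the respiratory chain and ribosomal proteins, none of which passed with edgeR between imatinib and L-NAME, were in part higher than control in each group. Over all genes tested, 5.68% were higher than control with imatinib and 5.48% with L-NAME. Of 36 complex I subunits 24 were higher than control with imatinib and 21 with L-NAME, with list medians of 0.62 and 0.52. Of 41 nuclear subunits of complexes II to V 26 and 26 were higher (0.58 and 0.50), of 73 mitochondrial ribosomal proteins 23 and 22 (0.41 and 0.36), and of 80 cytosolic ribosomal proteins 30 and 34 (0.50 and 0.60). Lower than control were 1 complex I subunit with imatinib and 1 with L-NAME, and 2 subunits of complexes II to V with L-NAME. Both contrasts use the same 8 control mice, so these counts are not independent of each other. Control libraries also differed from both groups in library measures. Their shares of reads outside genes ran from 7.55 to 8.68%, against 8.16 to 14.1% with imatinib and 8.82 to 16.8% with L-NAME. Reads ambiguous between genes ran from 2.79 to 3.34% in controls, 2.01 to 2.73% with imatinib and 2.36 to 3.18% with L-NAME. Multiply aligned reads ran from 31.68 to 33.88%, 34.13 to 38.95% and 32.98 to 37.95%. In these last shares imatinib and control libraries did not overlap. The part of these measures in the contrasts with control was not tested.

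Among the proteasome subunits, Psmb7 of the constitutive particle (log2 fold change 0.37) and Psmd1 (0.66) rose. Psmb8 (-0.66) and Psmb9 (-0.99) of the immunoproteasome fell, so that 4 of 42 passed in all. Psmb7 and Psmb8 lost their calls in 9 and 2 of 24 alternative settings (adjusted p up to 0.13 and 0.061). In iron handling, heme oxygenase Hmox1 (-1.04, adjusted p = 0.027) and transferrin Trf (-0.42, adjusted p = 0.041) fell, 2 of 23, with calls lost in 6 and 12 of 24 alternative settings (adjusted p up to 0.092 and 0.14). In the growth hormone axis Cyp2d9 (0.90) and Cyp2b9 (0.56) rose and Igfbp3 (-0.74) fell, 3 of 22, with calls lost in 18, 14 and 17 of 24 alternative settings.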
